A study of Mus musculus with 60 samples.

Results

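The nuclear genes of the mitochondrial respiratory chain were followed in spleen leukocytes of 3 inbred mouse strains at 2 ages. Genes were taken as members by name: those with a single symbol in the array annotation that begins with Nduf, Uqcr, Atp5, Cox4, Cox5, Cox6, Cox7 or Cox8, together with Sdha, Sdhb, Sdhc, Sdhd and Cyc1, a rule that uses no measured value. There were 91 such genes on 180 probe sets, of 18193 single-symbol genes and 45037 probe sets in all. They comprised 34 genes of complex I, 4 of complex II, 9 of complex III, 18 of complex IV and 17 of complex V, plus 8 Ndufaf genes, which encode assembly factors of complex I, and Cox7a2l, which helps to join complexes III and IV into supercomplexes. Ndufa4 and Ndufa4l2 were counted with complex IV, to which the NDUFA4 protein belongs. The spleens came from female NOD mice, an inbred strain that develops autoimmune diabetes spontaneously, and from female NON and C57BL/6 mice (written C57 for short), both used as diabetes-resistant controls. Each strain was sampled at 2 weeks and at 4 weeks of age with 5 mice per group, 1 pair of Affymetrix arrays (430A and 430B) per mouse and 30 mice in all. The mice had been given no treatment, and the leukocytes were not sorted into cell types. A probe set was kept when its signal reached 50 in at least 5 of the 30 mice, which left 171 member probe sets of 89 genes among 38293 probe sets of 16209 genes. Both genes that were not kept, Cox7a1 (mean signal 15.6) and Cox8b (mean signal 10.2), encode complex IV subunits known from heart and skeletal muscle.

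The respiratory chain sits in the inner mitochondrial membrane. Complex I takes electrons from NADH and complex II takes them from succinate, and both pass them by way of ubiquinone to complex III. Cytochrome c carries them on to complex IV, which reduces oxygen to water. Complexes I, III and IV pump protons, and complex V, the ATP synthase, uses the proton gradient to make ATP. Complex II is encoded entirely by nuclear genes, whereas each of the other complexes also holds subunits encoded by mitochondrial DNA. In lymphocytes, demand on the chain is known to differ between resting, activated and memory cells.

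The leukocyte markers Ptprc, Coro1a, Cd52, Laptm5 and Cd37 were bright in every group (lowest group mean 1356), and the summed signal of 9 muscle and fat markers lay between 243 and 915 over the 30 mice. Because the tissue is a mixture of cells, fewer cells of a type and less RNA per cell cannot be told apart in any value below. Signals were on the scale of the deposited tables, where the mean of each array, trimmed by 2% at each end, was 250. The third NOD mouse at 4 weeks stood apart, with a median correlation of 0.739 with its group over all kept probe sets. The Gapdh 3' to 5' signal ratio, which grows as RNA degrades, was 4.00 in the second NON mouse at 2 weeks, and it lay between 0.744 and 1.30 in the NOD mice. It was 3.15 and 2.31 in the first and the fifth NON mouse at 4 weeks. In C57 mice it reached 2.17 at 2 weeks and 2.40 at 4 weeks. The same ratio of Actb reached 7.02 in NON mice, 3.40 in C57 mice and 3.87 in NOD mice. The part of RNA quality in the differences between strains was not tested.

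Ndufs5, an accessory subunit of complex I, was the member whose signal set NOD mice apart from both control strains. On its own probe set the signal in NOD mice was 81.2, 63.8, 126, 54.9 and 54.9 at 2 weeks, against 602, 568, 503, 759 and 376 in NON mice and 368, 535, 395, 497 and 646.5 in C57 mice. At 4 weeks it was 73.0, 80.2, 63.5, 104 and 59.0 in NOD mice, against 495, 618, 829.5, 443 and 460.5 in NON mice and 455, 463, 582.5, 662 and 484 in C57 mice. At both ages every NOD mouse lay below every control mouse. The log2 difference between NOD mice and the mean of the control strains was -2.66 (SE 0.22) at 2 weeks and -2.70 (SE 0.19) at 4 weeks, with adjusted p = 8.11e-06 and 1.41e-06 (limma, Benjamini-Hochberg over all 38293 probe sets). Against NON mice alone the log2 difference was -2.75 at 2 weeks and -2.74 at 4 weeks, and against C57 mice alone it was -2.56 and -2.66. The control strains differed from each other by 0.19 at 2 weeks and 0.08 at 4 weeks (NON minus C57, adjusted p = 0.804 and 0.951). The change from 2 to 4 weeks was 0.03 in NOD mice, 0.02 in NON mice and 0.13 in C57 mice on the log2 scale, each with SE 0.23 and an adjusted p of at least 0.983. None of the genes in 9 lists of cell type markers was called between NOD mice and controls at 2 weeks, and 1, the platelet gene Ppbp, was called at 4 weeks. Against single strains, 1 T cell marker was higher in NOD than in NON mice at each age (Thy1 at 2 weeks, Cd3g at 4 weeks), and none was called against C57 mice at 2 weeks. At 4 weeks Cd8b1, a T cell marker, and Cd37, a leukocyte marker, were lower and the myeloid markers Mpo and Ctsg were higher in NOD than in C57 mice. The median log2 difference of the 9 T cell markers at 2 weeks was 1.05 against NON mice and -0.36 against C57 mice. At 4 weeks it was 0.58 and -0.30. That of the 7 B cell markers was 0.25 and -0.28 at 2 weeks, and -0.34 and -0.59 at 4 weeks. The part of cell composition in the Ndufs5 difference was not tested. The Ndufs5 difference held its direction and stayed past the threshold when each mouse was left out in turn, including the third NOD mouse at 4 weeks.

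**Figure D1:**
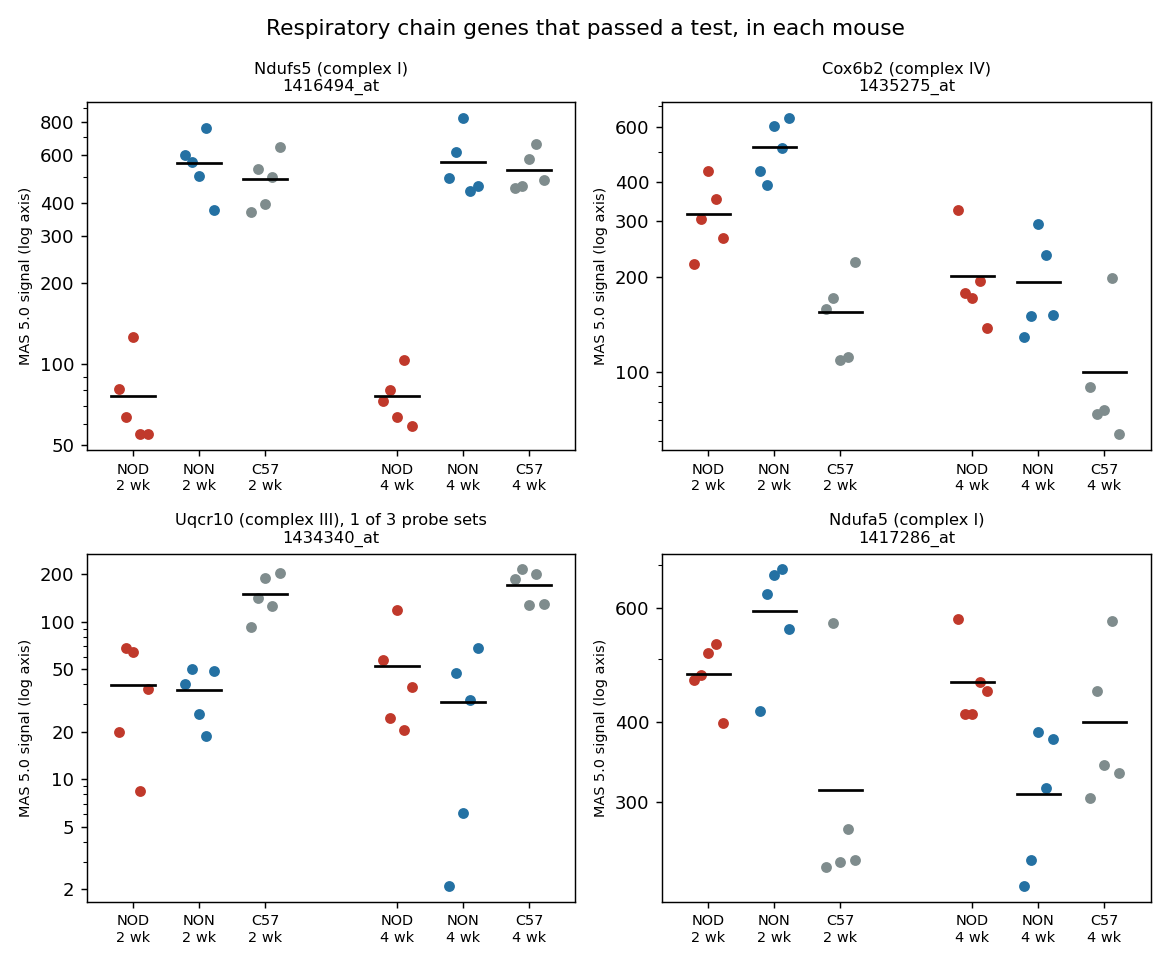
Signal of each mouse (log axis, points) for the member probe sets that passed a test, with NOD, NON and C57 mice from left to right at each age and bars at the group means. NOD mice lie apart from both control strains only for Ndufs5, at 54.9 to 126 against 368 to 829.5 in control mice over both ages.

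A second probe set was listed under Ndufs5 and under Ndufs5-ps, a pseudogene of it, and was therefore not counted as a member probe set. Its signal was 352, 329, 277, 229 and 226 in NOD mice at 2 weeks, against 437, 529, 387, 470.3 and 443 in NON mice and 280.4, 397, 266.5, 262.5 and 343 in C57 mice. At 4 weeks it was 269, 298, 324, 254 and 210.0 in NOD mice, against 368, 309, 445, 328 and 332 in NON mice and 329.9, 319.7, 361, 385 and 352 in C57 mice. The NOD and C57 ranges overlapped at both ages, and every NOD mouse lay below every NON mouse at 2 weeks only. The log2 difference between NOD mice and controls was -0.40 (SE 0.16, adjusted p = 0.448) at 2 weeks and -0.38 (SE 0.15, adjusted p = 0.297) at 4 weeks, the same direction as on the first probe set and not past the test. The mean NOD signal was 0.741 of the control mean at 2 weeks and 0.768 at 4 weeks on this probe set, against 0.145 and 0.138 on the Ndufs5 probe set. Which bases of the transcript each probe set reads, and whether the strains differ in sequence there, was not analysed here, which also holds for the other members called between strains. Of the other 9 probe sets that list a member among several genes, a dim probe set listed under Yjefn3 and Ndufa13 was not kept and so not tested. None of the rest passed a test in NOD mice against controls.

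Promoters are shown because nuclear respiratory chain genes are known to share binding motifs of a few transcription factors, and because Ndufs5 carries such a motif. Sequences are from RefSeq (build GRCm38.p6) and run 5' to 3' on the strand of the gene, with the motif in capitals. The window searched ran from 250 bases before to 50 bases after each start site, both strands were read, and 74 of the 91 members matched a gene of the table. The motif of NRF1, nuclear respiratory factor 1, was written as GCGCA, any base, then GCGC, and the stretches below are those of 1 member each of complexes II, IV and V and of both Ndufs5 and Ndufa5 of complex I.
Ndufs5, chr4:123718265-123718294, minus strand, match at -98: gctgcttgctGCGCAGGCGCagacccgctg
Ndufa5, chr6:24527697-24527726, minus strand, match at -190: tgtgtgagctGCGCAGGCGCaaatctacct
Sdhd, chr9:50603909-50603938, minus strand, match at -79: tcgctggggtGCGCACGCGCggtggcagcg
Cox6a1, chr5:115349101-115349130, minus strand, match at -162: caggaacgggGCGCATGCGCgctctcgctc
Atp5g2, chr15:102671070-102671099, minus strand, match at -42: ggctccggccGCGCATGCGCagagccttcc
Ndufs5, 250 bases before the start site, chr4:123718187-123718436, minus strand: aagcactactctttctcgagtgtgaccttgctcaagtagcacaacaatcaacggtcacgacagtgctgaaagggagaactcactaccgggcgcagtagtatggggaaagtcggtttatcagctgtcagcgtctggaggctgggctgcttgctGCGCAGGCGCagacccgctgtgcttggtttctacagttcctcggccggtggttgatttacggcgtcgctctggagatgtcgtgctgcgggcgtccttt
The NRF1 motif was present in 17 of the 74 members (23%), against 5.19% of all 27025 genes in the table and 7.17% of its protein-coding genes. By complex these were 5 genes of complex I, 2 of complex II, 1 of complex III, 1 of complex IV, 6 of complex V and 2 assembly factors. The ETS motif read by GABP, CCGGAAG, was present in 19 members (25.7%, against 9.93% of all genes and 12.9% of protein-coding genes). The YY1 motif, AAGATGGCG, was present in 7 (9.46%, against 1.64% of all genes and 2.14% of protein-coding genes). The last 3 letters of the ETS motif are the first 3 of the YY1 motif, so that matches of both can overlap. The TATA box, TATAAA, was present in 8 members (10.8%, against 15.7% of all genes and 14.8% of protein-coding genes). The windows of Cox6b2 and Uqcr10, described below, held none of these 4 letter runs.

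Across the 3 strains, 3 of the 171 member probe sets differed at 2 weeks by limma's F-test at an adjusted p under 0.05 (Ndufs5, Cox6b2 and 1 probe set of Uqcr10), and 2 differed at 4 weeks (Ndufs5 and the same probe set of Uqcr10). All probe sets tested passed at 1.66% at 2 weeks and 1.51% at 4 weeks, so the members' shares of 1.75% and 1.17% were near the background. In the contrast of NOD mice against both control strains, Ndufs5 was the 1 member called at each age, where 0.499% and 0.804% of all probe sets were called. At an unadjusted p under 0.05, 8 member probe sets passed at 2 weeks (5 lower and 3 higher in NOD mice) and 17 at 4 weeks (8 lower and 9 higher), or 4.68% and 9.94% against 9.44% and 12.7% of all probe sets. Each gene was then taken by the probe set of highest mean log2 signal. Of 89 genes, 85 lay within 0.5 of 0 on the log2 scale at 2 weeks and 83 at 4 weeks. Ndufs5 was the 1 gene beyond 1 at each age. Of the 171 member probe sets, 2 were beyond 1 at 2 weeks and 1 at 4 weeks, against 2.88% and 4.62% of all probe sets. The median log2 difference over the 89 genes was -0.04 at 2 weeks and -0.03 at 4 weeks, where that over all probe sets was 0.06 and 0.05. Over the 171 member probe sets the median was -0.003 at 2 weeks and 0.009 at 4 weeks. The values that follow set genes, each taken by its probe set of highest mean log2 signal, against every probe set. The sides thus differ in unit. Relative to all probe sets the 89 genes stood at -0.10 and -0.08. With all arrays brought to the same median signal, which moved the median over all probe sets by 0.12 at 2 weeks, they stood at -0.10 and -0.09, and with quantile normalization at -0.02 and 0.03, so the sign of this small shift at 4 weeks depended on the scaling.

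**Figure D2:**
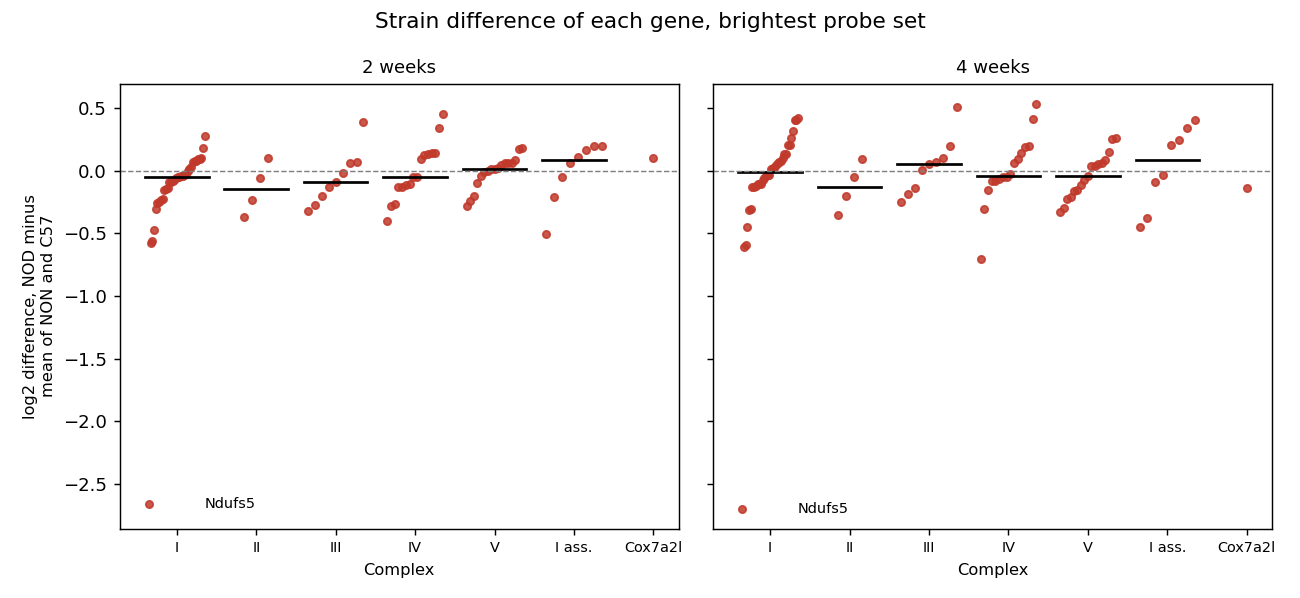
Log2 difference between NOD mice and the mean of both control strains for each of 89 member genes (points, probe set of highest mean log2 signal), by complex and at each age, with a line at the median of each complex. Ndufs5 lies at -2.66 and -2.70, and the medians of the complexes and of the complex I assembly factors (I ass.) lie between -0.15 and 0.09.

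In complex I the median log2 difference between NOD mice and controls over 34 genes was -0.05 at 2 weeks and -0.01 at 4 weeks, with 24 and 17 genes below 0. Of its 72 kept probe sets 61.1% and 51.4% were below 0 at these ages, against 42.3% and 44.9% of all probe sets. After Ndufs5, the members of mean signal over 200 that differed most were Ndufv3, an accessory subunit of the module that oxidises NADH, Ndufa12, an accessory subunit near that module, and Ndufb1, an accessory subunit of the membrane arm. Ndufv3 signal was 981 to 1668 (median 1089.5) in NOD mice at 2 weeks, which overlapped the NON range of 1141 to 2658 and the C57 range of 1534 to 1943. Its log2 difference was -0.57 (SE 0.20, adjusted p = 0.362) at 2 weeks and -0.61 (SE 0.20, adjusted p = 0.216) at 4 weeks. Ndufb1 signal was 256, 249.7, 263, 184 and 182 in NOD mice at 2 weeks, against NON mice at 257 to 379.8 and C57 mice at 263 to 344. Its log2 difference was -0.48 (SE 0.16, adjusted p = 0.307) at 2 weeks and -0.59 (SE 0.20, adjusted p = 0.229) at 4 weeks, which did not pass. Ndufa12 stood at -0.56 (adjusted p = 0.413) at 2 weeks and -0.45 (adjusted p = 0.318) at 4 weeks, and 1 of its 3 probe sets ran the other way. Ndufs8, an iron-sulfur subunit of the arm that leads electrons to ubiquinone, had the most probe sets, 6, and their log2 differences ran from -0.32 to 0.03 at 2 weeks and from -0.20 to 0.08 at 4 weeks. The 8 assembly factors had a median of 0.09 at 2 weeks and 0.08 at 4 weeks, and none was called.

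None of the 8 kept probe sets of complex II was called between strains or between NOD mice and controls. This complex is succinate dehydrogenase, shared with the citric acid cycle. Sdha, its flavoprotein, stood at -0.24 at 2 weeks and -0.20 at 4 weeks on the log2 scale, and Sdhb, its iron-sulfur subunit, at -0.06 and -0.05. Of the membrane anchors, Sdhc stood at 0.10 at both ages and Sdhd at -0.37 and -0.35 (adjusted p = 0.545 and 0.675). Over the 89 genes the median SE in this contrast was 0.19 at 2 weeks and 0.18 at 4 weeks. The SE of the complex II genes was 0.15 to 0.19 at 2 weeks and 0.14 to 0.30 at 4 weeks. The lowest unadjusted p of their 8 probe sets was 0.0569 at 2 weeks and 0.179 at 4 weeks (limma).

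In complex III the median log2 difference was -0.09 at 2 weeks and 0.05 at 4 weeks over 9 genes. Uqcrq, a small subunit, stood above 0 at both ages on its probe set of highest mean log2 signal. It did not pass the test of NOD mice against controls. Between the 3 strains it passed in the methods' one-way test at 4 weeks (adjusted p = 0.0466) and, at 2 weeks, with all 30 mice in 1 fit (adjusted p = 0.0292). Its signal at 4 weeks was 999.6, 945, 891, 928 and 802.5 in NOD mice, against 674.5, 631, 864, 601 and 547 in NON mice and 596, 620.2, 614, 729.9 and 558 in C57 mice, so that 4 NOD mice lay above all controls. The log2 difference was 0.51 (SE 0.14, adjusted p = 0.135) at 4 weeks and 0.39 (SE 0.18, adjusted p = 0.510) at 2 weeks. The other Uqcrq probe set of mean signal at least 100 stood at 0.12 at 4 weeks and 0.10 at 2 weeks. Over all 4 kept probe sets the values ran from -0.11 to 0.51 at 4 weeks and from 0.10 to 0.39 at 2 weeks. Uqcrc1 and Uqcrc2, the core subunits, stood at -0.27 and 0.06 at 2 weeks and at 0.07 and 0.20 at 4 weeks. Cyc1, which encodes cytochrome c1, stood at -0.32 at 2 weeks and 0.11 at 4 weeks. Uqcrh, the hinge subunit, stood at -0.09 and -0.25, and Uqcrb at -0.02 and 0.05.

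In complex IV the median over 16 genes was -0.05 at 2 weeks and -0.04 at 4 weeks, and in complex V it was 0.01 and -0.04 over 17 genes. Among complex IV members present in all tissues, Cox5a stood at 0.13 at 2 weeks and 0.42 at 4 weeks (SE 0.25, adjusted p = 0.523), Cox6a1 at -0.28 and -0.06, and Cox6c at -0.05 and -0.30. Among complex V members, Atp5b, the catalytic beta subunit, stood at 0.18 and 0.26, and Atp5c1, the gamma subunit of the central stalk, at -0.24 and -0.30. The other subunits of the stalk, Atp5d and Atp5e, stood at -0.28 and -0.20 at 2 weeks and at -0.11 and -0.33 at 4 weeks. Atp5g3, 1 of 3 genes for subunit c of the rotor ring, stood at 0.06 and 0.08. Adjusted p-values of these complex IV and V values were all at least 0.405. With all arrays at the same median signal the median of complex V at 2 weeks was -0.10 in place of 0.01. That of complex III at 4 weeks was -0.07 in place of 0.05. Those of the assembly factors were -0.04 and -0.02 in place of 0.09 and 0.08. The directions of these medians thus depended on the scaling, which moved the median over all probe sets by 0.12 at 2 weeks and 0.10 at 4 weeks.

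Cox6b2 encodes the form of complex IV subunit VIb known from testis, and it was higher in NON than in C57 mice at 2 weeks. Its signal at 2 weeks was 435, 393, 604, 515 and 641 in NON mice, against 158, 172, 109, 111 and 223 in C57 mice, with no overlap. NOD mice lay between them at 219.7, 305.5, 434, 353 and 266. The log2 difference of NON minus C57 mice was 1.70 (SE 0.24, adjusted p = 0.00159), a 3.35-fold ratio of mean signals, and 2 members (Cox6b2 and the Uqcr10 probe set described below) were called in this comparison, where 1.56% of all probe sets were called. NOD mice stood 1.00 above C57 mice (adjusted p = 0.0766) and -0.71 relative to NON mice (adjusted p = 0.312). At 4 weeks the signal was 129, 150.5, 295, 235 and 151.5 in NON mice, against 89.5, 73.1, 75.7, 198 and 63.2 in C57 mice, and it was 327, 177.5, 171, 194 and 137 in NOD mice. The groups then overlapped, and the NON minus C57 difference was 0.93 (adjusted p = 0.287). Markers of other cells moved with the NON to C57 comparison at 2 weeks: 1 of 9 erythroid markers (Klf1) was higher and 5 of 9 T cell markers were lower in NON mice, with summed erythroid signal of 5761 to 16299 in NON mice against 2722 to 5503 in C57 mice. The summed T cell signal in NON mice, 1198 to 2941, lay below that of C57 mice, 4898.5 to 9085. Hba-a1, an alpha globin, averaged 46.8 in NON mice and 70.5 in C57 mice, and Cd3e, a chain of the T cell receptor complex, averaged 218 in NON mice and 488 in C57 mice. The part of these cells in the Cox6b2 difference was not tested.

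Uqcr10, a small subunit of complex III, differed between strains on 1 of its 3 probe sets. On this probe set the signal at 2 weeks was 19.8, 67.8, 64.2, 8.4 and 37.6 in NOD mice and 39.9, 50.3, 25.9, 18.9 and 48.9 in NON mice, against 92.8, 140.3, 188, 125 and 204 in C57 mice. At 4 weeks it was 57.4, 24.4, 119, 20.6 and 38.4 in NOD mice and 2.1, 47.3, 6.1, 32.0 and 67.6 in NON mice, against 187, 214.5, 128, 201.5 and 129 in C57 mice. Every C57 mouse lay above every NOD and NON mouse of its age. The NOD minus C57 log2 difference was -1.84 (SE 0.38, adjusted p = 0.0300) at 2 weeks and -1.73 (SE 0.50, adjusted p = 0.129) at 4 weeks, and the NON minus C57 difference was -1.78 (SE 0.38, adjusted p = 0.0265) and -2.45 (SE 0.50, adjusted p = 0.0319). Of all probe sets, 0.841% were called in NOD against C57 mice at 2 weeks and 0.794% in NON against C57 mice at 4 weeks. On the probe set of highest mean log2 signal the groups overlapped and the log2 differences from C57 mice were 0.02 and -0.10 at 2 weeks and -0.08 and 0.20 at 4 weeks for NOD and NON mice. On the third one NOD mice stood at -0.63 and NON mice at -0.91 relative to C57 mice at 2 weeks (adjusted p = 0.417 and 0.154). The signal of NOD and NON mice on the called probe set lay near or under the floor of 50, and leaving out single mice ended the F-test call at 4 weeks in 12 of 15 cases. The pairwise calls at an age rest on its 15 mice, each left out in turn. At 2 weeks 7 of these ended the NOD minus C57 call (adjusted p up to 0.0870) and 7 the NON minus C57 call (up to 0.0764). At 4 weeks 8 ended the NON minus C57 call (up to 0.0866). An offset of 1 ended all 3 calls (adjusted p = 0.0589, 0.0564 and 0.0772).

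Several complex IV subunits exist as a form known from most tissues and a form known from few. Of the restricted forms, Cox6b2 was the 1 that passed a test. Cox4i2, known from lung, stood at 0.14 between NOD mice and controls at 2 weeks and 0.10 at 4 weeks. Cox6a2, known from heart and skeletal muscle, stood at 0.10 and -0.05, and its other probe set at -0.05 and -0.69. Cox7b2 and Ndufa4l2 stood at 0.45 and 0.34 at 2 weeks and at -0.16 and -0.08 at 4 weeks, with SE between 0.38 and 0.60. Cox8c, known from testis, stood at -0.40 and 0.19, and its other probe set at 0.27 and 0.02. Their ubiquitous partners Cox4i1, Cox6b1, Cox7a2, Cox8a and Ndufa4 stood between -0.13 and 0.13 at 2 weeks and between -0.08 and 0.20 at 4 weeks, Cox6a1 stood at -0.28 and -0.06, and none passed.

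Between 2 and 4 weeks 2 member probe sets were called, both in NON mice. No member probe set passed in NOD mice (0 of 171, where 0.146% of all probe sets were called) or in C57 mice (0 of 171, where 0.46% were called) by limma. At an unadjusted p under 0.05 there were 10 members in NOD mice and 4 in C57 mice, or 5.85% and 2.34% against 8.9% and 6.7% of all probe sets. In NON mice 2 of 171 were called (1.17%), where 1.46% of all probe sets were called, so the members' share was near the background. Cox6b2 fell by 1.43 on the log2 scale (SE 0.28, adjusted p = 0.00905) in NON mice, where 4 weeks stood at 129 to 295 against 393 to 641 at 2 weeks with no overlap. Its change was -0.65 in both NOD mice (adjusted p = 0.490) and C57 mice (adjusted p = 0.647), and the NON change differed from the mean of these by -0.78 (adjusted p = 0.551). Ndufa5, an accessory subunit of complex I, was 222, 244, 386, 316 and 376 in NON mice at 4 weeks, against 416, 631, 674, 689 and 556 at 2 weeks, with no overlap. It fell by 0.93 on the log2 scale in NON mice (SE 0.22, adjusted p = 0.0302). In NOD mice it was 577, 411, 410.4, 460.4 and 446 at 4 weeks, against 464.5, 472, 511, 528 and 399 at 2 weeks, and in C57 mice 305, 446.5, 343, 573 and 333 against 238, 569, 242, 272 and 244. The NON change differed from the mean of the other strains by -1.10 (SE 0.27, unadjusted p = 0.000407, adjusted p = 0.321), so the difference between strains did not pass. On the other Ndufa5 probe set the NON change was -0.25 (adjusted p = 0.739). Both calls were lost when NON mice were fitted alone, and that of Ndufa5 was also lost without single NON mice.

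More members had a negative than a positive change in NON mice, and apart from Cox6b2 and Ndufa5 none passed the test. The median log2 change over 89 genes was -0.17 in NON mice, -0.05 in NOD mice and -0.02 in C57 mice, where those over all probe sets were within 0.03 of 0. Over the 171 member probe sets it was -0.13, -0.04 and -0.02. In NON mice 61 of 89 genes and 63.2% of the member probe sets had a negative change, as had 49.8% of all probe sets. At an unadjusted p under 0.05, 20 member probe sets were lower and 5 higher, together 14.6%, against 6.47% of all probe sets lower and 6.48% higher, together 13%. The median was -0.26 in complex I (25 of 34 genes negative), -0.25 in complex II (4 of 4), -0.11 in complex III (6 of 9), -0.13 in complex V (12 of 17) and 0.00 in complex IV (8 of 16), and quantile normalization gave -0.11 in complex IV. Uqcr11, a small subunit of complex III, was 653, 518, 764.5, 530.1 and 499 in NON mice at 4 weeks, against 871, 1031, 919.6, 1061 and 1061 at 2 weeks, with no overlap. Its change was -0.74 (adjusted p = 0.0554), just short of the threshold, and it passed with an offset of 50 (adjusted p = 0.0394), with the floor at 100 (adjusted p = 0.0398) and after quantile normalization (adjusted p = 0.0425). Both probe sets of Ndufb7, a subunit of the membrane arm of complex I, ran the same way in NON mice, at -0.58 (adjusted p = 0.384) and -0.64 (adjusted p = 0.094). Between the ages, cell markers also moved in NON mice: 4 of 11 markers of dividing cells (Birc5, Aurkb, Plk1 and Cdc20) were lower at 4 weeks and 7 of 9 T cell markers were higher. The summed signal of the dividing cell markers was 7826 to 12383.5 at 4 weeks, against 12799.7 to 22195 at 2 weeks, and that of the T cell markers was 4346 to 5599 against 1198 to 2941. In C57 mice 4 of the 11 dividing cell markers were lower too, at 2927 to 6790.1 in sum at 4 weeks, against 7059.8 to 13444 at 2 weeks. The Gapdh 3' to 5' ratio was 3.15 and 2.31 in the first and the fifth NON mouse at 4 weeks and 4.00 in the second NON mouse at 2 weeks, and it was below 1.28 in the other NON mice. The part of these cells and of RNA quality in the change of the members was not tested.

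**Figure D3:**
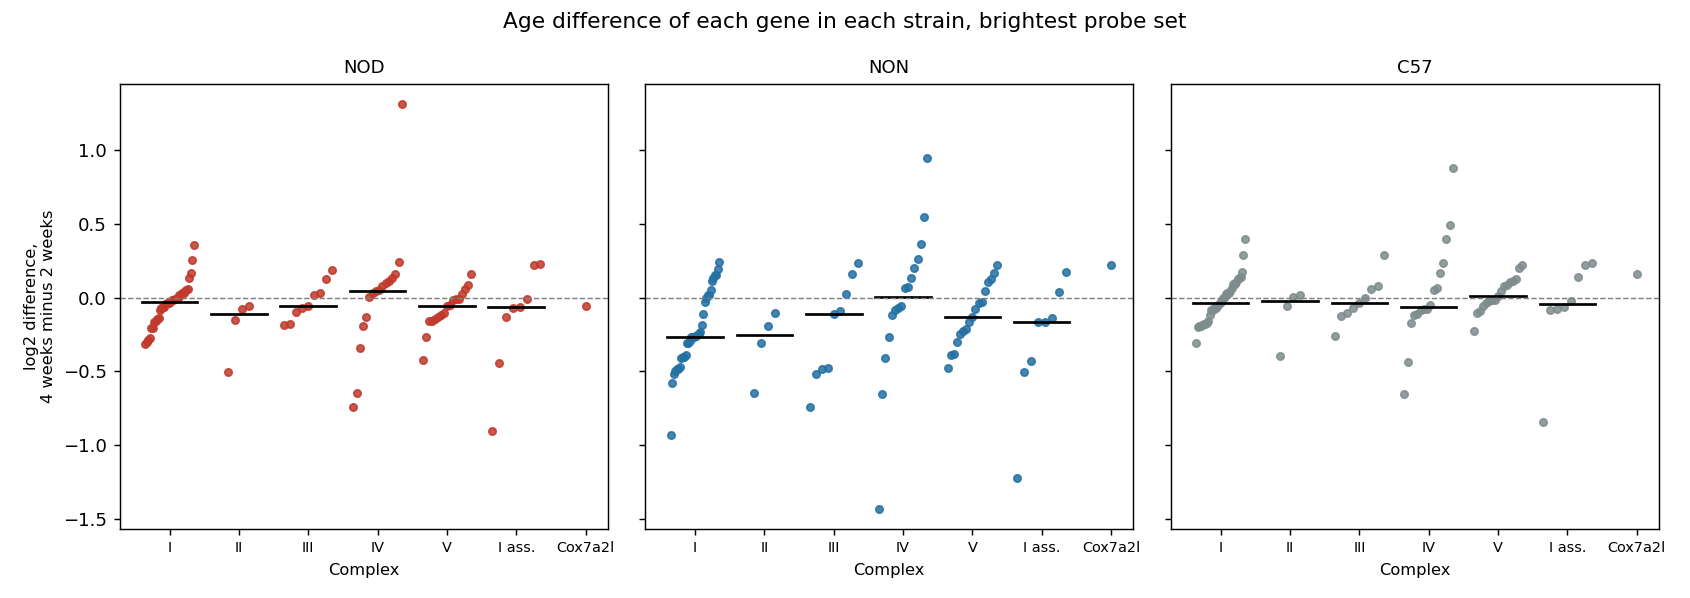
Log2 change from 2 to 4 weeks of each of 89 member genes (points) by complex in NOD, NON and C57 mice, with a line at the median of each complex. The NON medians of complexes I and II lie at -0.26 and -0.25.

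The level of each complex, taken as the mean log2 signal of its genes, overlapped between NOD mice and each control strain at both ages in complexes I to V. For complex I it was 9.86 ± 0.28 in NOD mice, 10.11 ± 0.13 in NON mice and 9.95 ± 0.15 in C57 mice at 2 weeks (SD, n = 5 each), and 9.82 ± 0.22, 9.89 ± 0.15 and 9.93 ± 0.13 at 4 weeks. For complex II it was 10.03 ± 0.18 in NOD mice, 10.26 ± 0.09 in NON mice and 10.08 ± 0.14 in C57 mice at 2 weeks, and 9.83 ± 0.17, 9.94 ± 0.30 and 9.97 ± 0.15 at 4 weeks. For complex III it was 10.81 ± 0.30, 11.00 ± 0.10 and 10.74 ± 0.13 in NOD, NON and C57 mice at 2 weeks, and 10.79 ± 0.20, 10.78 ± 0.12 and 10.72 ± 0.17 at 4 weeks. The complex I level includes Ndufs5, whose log2 difference between NOD mice and controls was -2.66 at 2 weeks and -2.70 at 4 weeks. NON mice had the highest mean at 2 weeks in all 5 complexes. Their range overlapped that of NOD mice in each, and in complex III it lay above that of C57 mice, at 10.94 to 11.16 against 10.58 to 10.92. For complexes IV and V the group means lay between 9.85 and 9.99 and between 10.90 and 11.06, within 1 SD of the NOD mice at the same age. The NOD mice at 2 weeks spread most in complexes I, III and IV, from 9.52 to 10.30 in complex I.

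**Figure D4:**
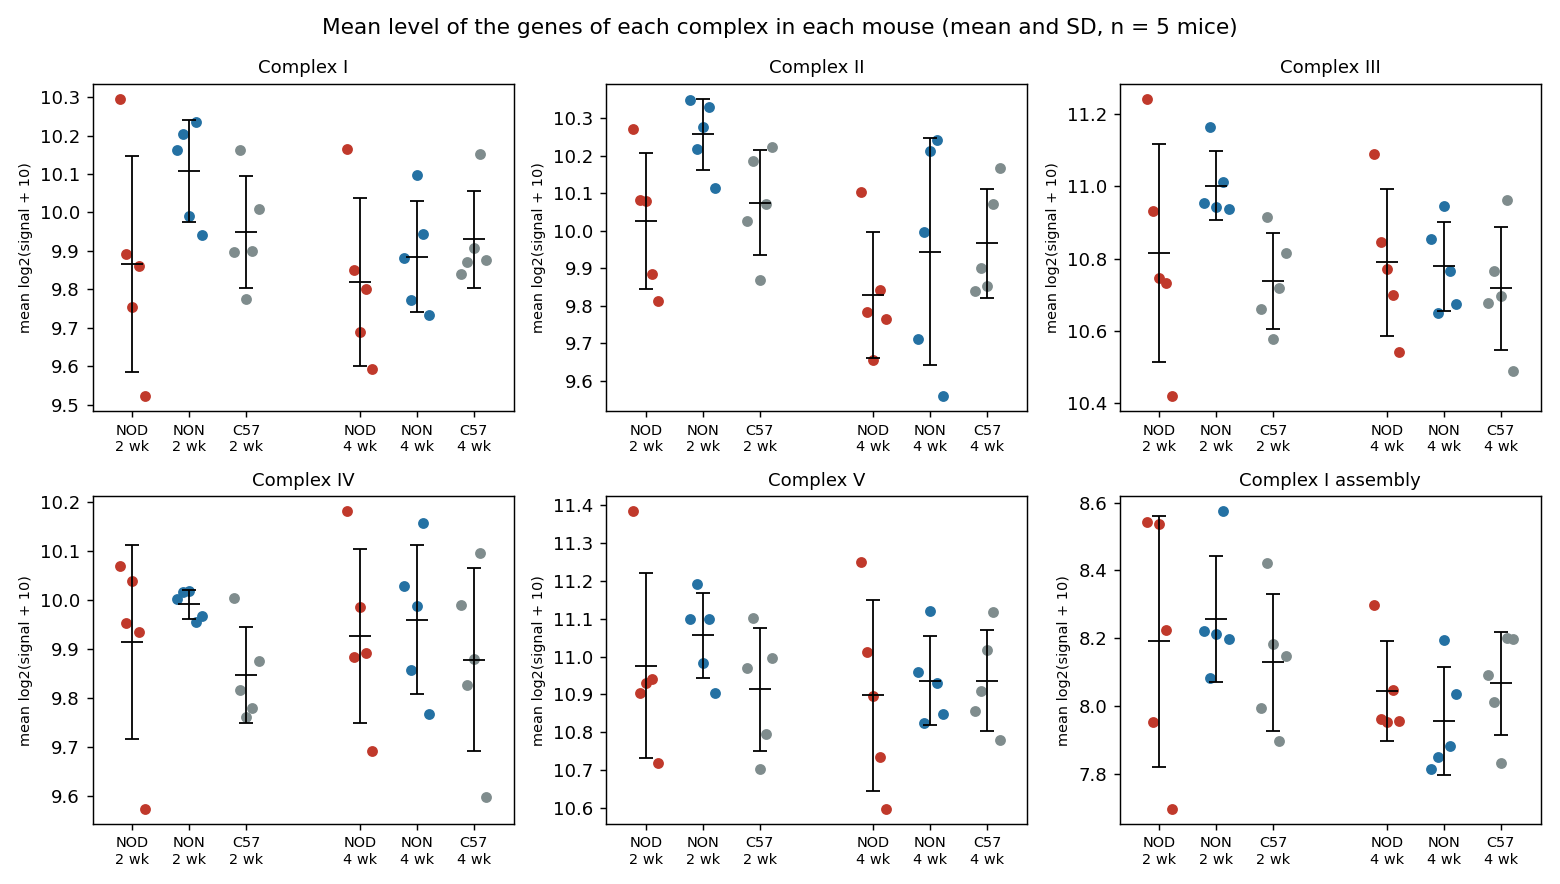
Mean log2 signal of the genes of each complex in every mouse (points), with NOD, NON and C57 mice from left to right at each age, and the mean with an SD bar for each group of 5 mice. In complex I the NOD mice at 2 weeks run from 9.52 to 10.30 and overlap both control strains.

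Probe sets of the same gene gave unequal accounts of small differences. Of the 89 kept genes, 40 had 1 kept probe set and 49 had several. The log2 difference between NOD mice and controls had the same sign on all probe sets for 20 of 49 genes at 2 weeks (40.8%). At 4 weeks it did so for 26 of 49 (53.1%). Over all 7579 genes with several kept probe sets the shares were 42.1% and 45.3%. The median gap between the lowest and highest probe set of a member gene was 0.14 at 2 weeks and 0.22 at 4 weeks, smaller than 0.42 and 0.47 over all such genes, and it was under 0.5 in 40 and 37 of the 49 genes. Deviations of single mice from their group means correlated between probe sets of a gene with a median r of 0.34 over the 49 genes, from -0.56 for Atp5c1 to 0.95 for Cox7a2. The probe sets of Cox7a2, and those of Ndufb7 and Cox6b1 at 0.80 and 0.75, thus followed the same mice, whereas those of Atp5c1 and Sdhd (-0.38) did not. These correlations rest on 30 mice and on probe sets that share each array's scale.

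The genes with the widest gaps among probe sets of mean signal at least 100 were named by rule. For Ndufa12 the 3 probe sets stood at -0.56, -0.40 and 0.27 at 2 weeks and at -0.45, -0.185 and 0.51 at 4 weeks. For Atp5g2, a second gene for subunit c, they stood at -0.15 and 0.92 at 4 weeks, and the one of mean signal below 100 at 0.41. For Atp5a1, the alpha subunit of complex V, they stood at -0.07, 0.03 and 0.99 at 4 weeks, and the third NOD mouse read 872 on the last where the other NOD mice read 217 to 246. For Ndufc2, a membrane arm subunit of complex I, 1 probe set stood at -0.89 (SE 0.30, adjusted p = 0.216) at 4 weeks, with the same NOD mouse at 148.5 and the other NOD mice at 473 to 761, while the other probe sets stood at -0.13, 0.19 and, for the one of mean signal below 100, 0.41. For Ndufs4, an accessory complex I subunit, the range at 4 weeks was -0.78 to 0.03, with 0.29 on the probe set of mean signal below 100, and for Ndufa3, a membrane arm subunit, the 3 values at 2 weeks were -0.15, -0.16 and 0.55. For Sdhd the values at 4 weeks were -0.35 and 0.46, and for Cox8c those at 2 weeks were -0.40 and 0.27. None of these probe sets passed the test.

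**Figure D5:**
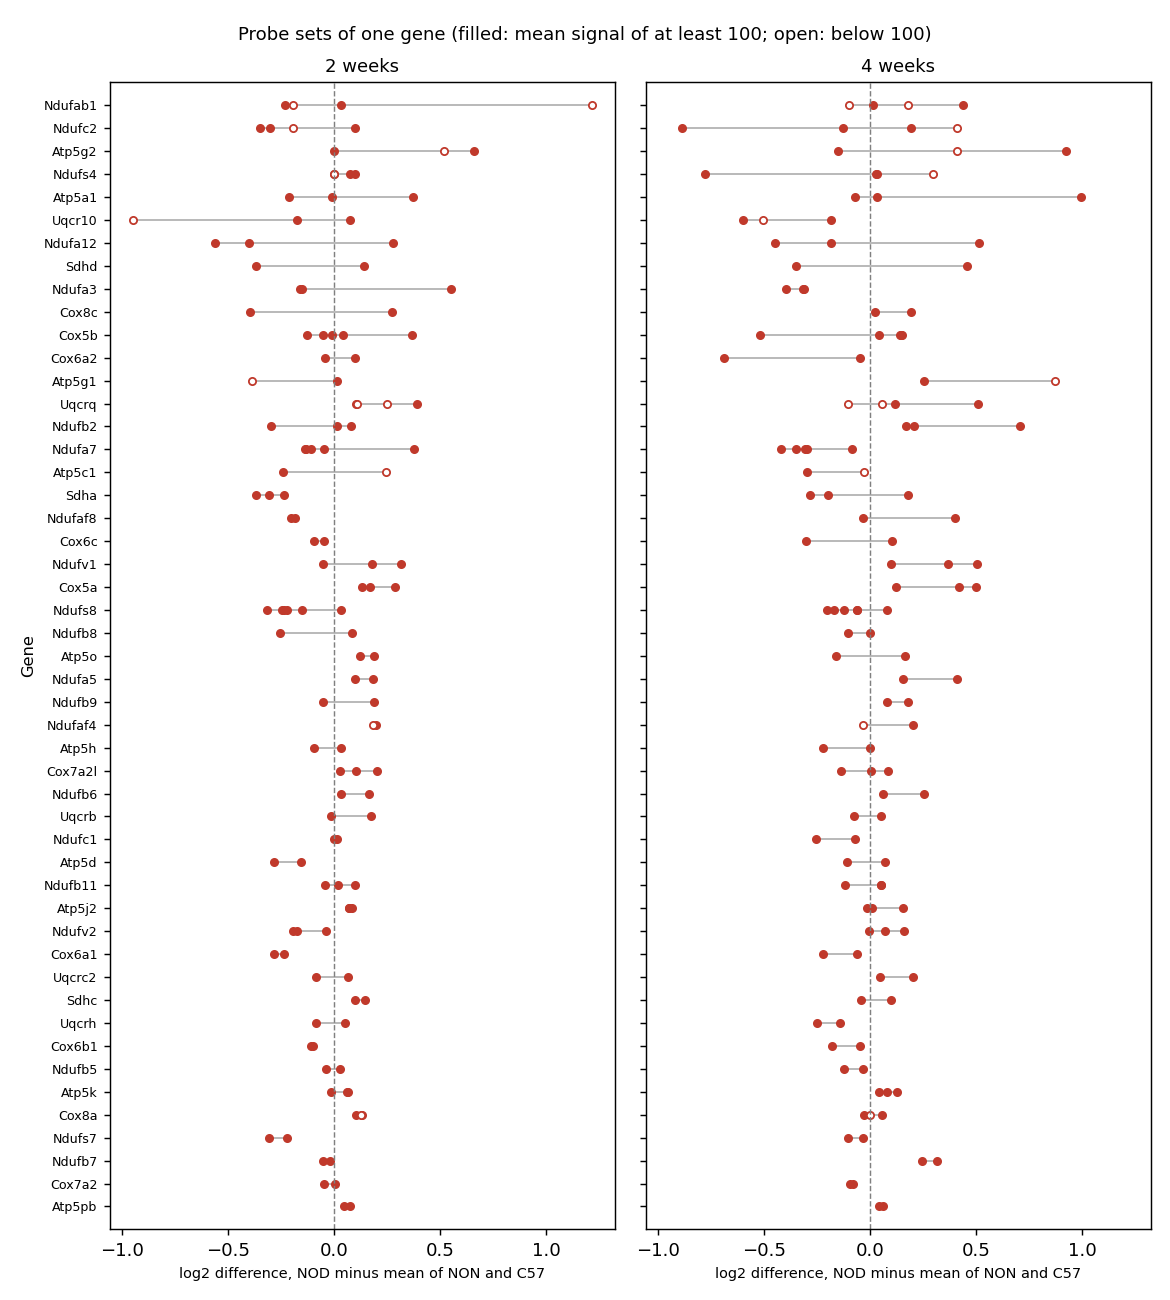
Log2 difference between NOD mice and controls for every kept probe set (points, open where the mean signal was below 100) of the 49 genes with several, at 2 and 4 weeks, with a grey line from the lowest to the highest. The 3 probe sets of Ndufa12 lie on both sides of 0, from -0.56 to 0.27 at 2 weeks.

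Genes that serve the chain were read from lists by the probe set of highest mean log2 signal. Of 35 measured assembly factors of the complexes and cytochrome c genes, none was called between strains by the F-test, between NOD mice and controls or with age, and Atpif1, the inhibitor of ATP synthase, was higher in NON than in C57 mice at 2 weeks by 1.11 (adjusted p = 0.0266). Its other probe sets stood at 0.24 (adjusted p = 0.705) and -0.16 (adjusted p = 0.892) in the same comparison. None of 18 regulators of mitochondrial biogenesis was called in any of these tests. In NOD mice against controls at 4 weeks Nrf1 stood at -0.29 (adjusted p = 0.610), Gabpa at -0.29 (adjusted p = 0.507), Yy1 at -0.05 (adjusted p = 0.927) and Tfam, which packages mitochondrial DNA, at 0.07 (adjusted p = 0.914). None of 6 mitochondrial carriers was called.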

How the data were processed

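Total RNA of unfractionated spleen leukocytes from single mice was hybridised to Affymetrix MOE430A and 430B arrays, 1 pair per mouse. The deposited values are MAS 5.0 signal intensities, which the authors computed and scaled per array. Their methods name a target of 100, whereas the 2% trimmed mean of each deposited array is 250, so the scale is that of the files. Detection calls were not used. Signals of both arrays were joined, kept at a signal of at least 50 in 5 of the 30 mice, and tested as log2(signal + 10), which understates the change of low signals.

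At each age the 3 strains were fitted together in limma 3.58.1 (R 4.3.3), with an F-test and contrasts, and age changes were fitted over all 30 mice. P-values were adjusted by Benjamini-Hochberg over the 38293 kept probe sets, with calls at an adjusted p under 0.05. Differences are NOD minus controls, NOD minus 1 control strain, NON minus C57, or 4 minus 2 weeks. Folds are ratios of mean signals. The comparisons share control mice. Promoters were searched in RefSeq sequences (GRCm38.p6) with Python 3.11.15. The fits were tested on simulated data.

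Named genes were those called by a test, the 3 members per complex with the largest NOD difference at each age (mean signal at least 200), the brightest member of each complex, up to 8 genes with the widest gaps between probe sets, and the paired complex IV forms. Ndufs8, Ndufb7 and Uqcr11 were named after their values were seen. Members and lists were chosen with earlier results of these data known. Of all probe sets, 34945 had 1 gene symbol, 932 several and 9160 none. Mice are the replicates, and their number, 5 per group, limits the precision. Alternatives were the offset, the filter, the scaling, the fit, a replicate block, the methods' one-way test and leaving out each mouse.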

Additional observations from a re-analysis of the deposited data

Results flagged for a closer look

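Of 66 groups of 5 mice examined, 8 held a mouse whose gap to its neighbour exceeded Dixon's 95% critical value, where chance gives about 1 in 20. Cox6b2 signal was 197.6 in 1 C57 mouse at 4 weeks, where the other 4 lay between 63.2 and 89.5. Ndufa5 signal was 568.9 in 1 C57 mouse at 2 weeks, where the other 4 lay between 238 and 272. The mean log2 level of complex I was 10.15 in 1 C57 mouse at 4 weeks, above its group, and that of complex IV was 9.575 in 1 NOD mouse at 2 weeks, below its group. The mean log2 level of the complex I assembly factors was 8.574 in 1 NON mouse at 2 weeks and 8.297 in 1 NOD mouse at 4 weeks, both above their groups. The median correlation with the group was 0.7389 in the third NOD mouse at 4 weeks and 0.8245 in the second NON mouse at 2 weeks, both below their groups.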

How the results depend on the processing

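Ndufs5 stayed lower in NOD mice under every alternative tried, at -2.84 to -2.19 (log2) at 2 weeks and -2.84 to -2.24 at 4 weeks, with a largest adjusted p of 0.000519 and 0.000107, and the count of members called between NOD mice and controls stayed 1. The count of members that differed between strains at 2 weeks was 5 when all 30 mice were fitted together (Ndufa5 and Uqcrq added), and 2 to 4 with single mice left out. At 4 weeks it was 4 with all 30 mice, 3 with the methods' test (Atp5b and Uqcrq in, Uqcr10 out), 1 with an offset of 1, 1 without the filter, 1 with the replicate block, and 1 to 2 with single mice left out; it was 1 without NOD replicates 1, 2, 4 or 5, NON replicates 1, 3 or 4, or any C57 mouse, and Uqcr10 was then lost. The count that changed with age in NON mice was 4 after quantile normalization, 3 with an offset of 50 or a floor of 100 (Uqcr11 added), 1 with equal array medians, 0 with the methods' test, 0 with NON mice alone, and 1 to 3 with single mice left out; it was 1 without NON replicates 3, 4 or 5 at 2 weeks or 1 or 2 at 4 weeks, and Ndufa5 was then lost, with an adjusted p of up to 0.0990. Cox6b2 in NON mice missed the threshold in the methods' test (adjusted p = 0.0868) and in NON mice alone (adjusted p = 0.0853). The cause of these losses was not tested. No member was called with age in NOD or C57 mice under any alternative. Deviations from the group means correlated weakly between mice of the same replicate number (median r = 0.04, over 0.1 in 8 of 75 pairs) and less between mice of different numbers (median r = -0.01, over 0.1 in 10 of 300 pairs), and 14 of 30 mice were closest to their own of 5 numbers, a hint from the data that some shared more than a number. The labels give no pairing and most pairs stayed below 0.1, so the mice were not treated as paired. The replicate block ended the NON minus C57 call of Uqcr10 at 4 weeks (adjusted p = 0.116) and left 3 members between strains at 2 weeks and 2 with age in NON mice. Members with signals near 50, such as the called Uqcr10 probe set, are limited by background.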

Other observations

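Central carbon metabolism outside the chain was read from 13 measured enzymes of the tricarboxylic acid cycle and 14 glycolytic enzymes, from lists chosen with earlier results of these data known. Suclg2, the GTP-forming subunit of succinyl-CoA ligase, was the 1 cycle enzyme called in NOD mice against controls at 2 weeks. Its mean signal was 822 in NOD mice, against 2454 in NON mice and 2253 in C57 mice at 2 weeks, a log2 difference of -1.56 (SE 0.21, adjusted p = 0.00149, limma with Benjamini-Hochberg). At 4 weeks the means were 850.2 in NOD mice, 2024 in NON mice and 2109.68 in C57 mice, and the difference of -1.58 (SE 0.41, adjusted p = 0.0997) did not pass. A second Suclg2 probe set passed at both ages, at -1.34 (adjusted p = 0.000711) and -1.83 (adjusted p = 0.00979).

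No glycolytic enzyme was called between NOD mice and controls. Tpi1, triosephosphate isomerase, fell by 0.91 on the log2 scale in NON mice (SE 0.18, adjusted p = 0.00808), and both of its other probe sets passed as well, at -0.92 (adjusted p = 0.0104) and -0.74 (adjusted p = 0.0406). On the first of these probe sets the NON change differed from the mean of the other strains by -0.78 (adjusted p = 0.374, limma), which did not pass. The median change of the 14 glycolytic enzymes was -0.37 in NON mice, -0.05 in NOD mice and -0.13 in C57 mice. Those over all probe sets were within 0.03 of 0. Of 11 markers of dividing cells, 4 fell in NON mice, as did 4 in C57 mice and 0 in NOD mice. The part of dividing cells in the change of these enzymes was not tested.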
